A study of Caenorhabditis elegans with 3 samples.

Results

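The genes described here are 10 Caenorhabditis elegans genes that the oocyte uses to build and run the early embryo, 10 of 19985 protein-coding genes. They were chosen by name: spn-4, chs-1, nos-3, oma-1, oma-2, mex-3, mex-5, pos-1, gld-1 and puf-5. All 10 symbols matched 1 gene each in the WBcel235 annotation. The question is where DPL-1 sits around their 5' ends. DPL-1 is the worm DP protein, which binds DNA as the partner of an E2F protein. Chromatin immunoprecipitation followed by sequencing was carried out with an anti-GFP antibody on sonicated chromatin of whole young adult hermaphrodites of strain YL507. These worms carry DPL-1 with a C-terminal GFP-FLAG tag from a stably inherited transgene, and their age is listed as unknown. The samples are 3 biological replicates of 1 group, and the control that the labels name was not analysed here, so no background measured the same way can be given. The chromatin came from whole animals, so a peak cannot be assigned to the germ line or to any somatic tissue.

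A fully grown worm oocyte makes little new RNA, and the egg is loaded with messages whose use is timed by RNA-binding proteins. GLD-1, NOS-3 and the PUF proteins act in the germ line, OMA-1 and OMA-2 act as the oocyte matures, and MEX-3, MEX-5, POS-1 and SPN-4 set where and when maternal messages are translated in the first embryonic cells. CHS-1 is an enzyme, the chitin synthase that builds the eggshell, and is the exception among regulators of RNA. E2F and DP proteins are known in worms and other animals for binding promoters of cell cycle genes, and in the worm germ line they are also known to act on genes of oogenesis and early development.

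The bases around the summit, the point of highest signal in a peak, are shown for the 6 genes of the 10 whose summit lay in sequence with no annotated gene and whose chromosome is among those printed here. They are 101 bases centred on the summit, cut for nos-3 where the gene begins, read from the RefSeq genome of build WBcel235 (ce11) on the plus strand. Capitals mark a match to an E2F-like site (TTCCCGC or TTCGCGC or TTGCCGC or TTGGCGC) or to the CHR element (TTCGAA or TTTGAA), which the LIN-54 protein of the DREAM complex binds, on either strand. The spn-4 capitals are a CHR match and the puf-5 capitals an E2F-like match.
spn-4, chrV:6785245-6785345: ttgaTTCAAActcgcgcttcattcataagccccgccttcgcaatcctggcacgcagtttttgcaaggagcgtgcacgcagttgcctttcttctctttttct
nos-3, chrII:9746223-9746315: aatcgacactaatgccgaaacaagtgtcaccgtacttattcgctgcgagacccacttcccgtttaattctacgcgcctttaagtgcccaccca
mex-5, chrIV:13353368-13353468: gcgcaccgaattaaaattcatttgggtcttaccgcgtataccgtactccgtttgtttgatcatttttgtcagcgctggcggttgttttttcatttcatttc
oma-1, chrIV:8888662-8888762: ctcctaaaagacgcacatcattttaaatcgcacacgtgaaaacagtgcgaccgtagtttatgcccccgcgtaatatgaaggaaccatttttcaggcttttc
puf-5, chrII:8575360-8575460: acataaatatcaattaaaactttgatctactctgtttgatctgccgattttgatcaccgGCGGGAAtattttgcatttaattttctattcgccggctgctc
pos-1, chrV:8413856-8413956: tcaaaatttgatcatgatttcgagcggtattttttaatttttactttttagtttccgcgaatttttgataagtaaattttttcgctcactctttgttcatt
The first 5 are summits of peaks on the authors' thresholded list. The pos-1 summit is the strongest at the starts of the 10 genes that missed it.

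DPL-1 peaks lay close upstream of 6 of the 10 genes, and these were spn-4, chs-1, nos-3, mex-5, oma-1 and puf-5. The peaks are those of the authors' optimal list, which holds 3295 peaks thresholded by the irreproducible discovery rate (IDR), a measure of how alike peaks rank in replicates. A peak was counted at a gene when its summit was within 500 bp of the start of the gene record. Over all protein-coding genes the share with such an IDR peak was 11.8%. The other 4 genes, pos-1, gld-1, oma-2 and mex-3, had only weaker summits there, from the authors' relaxed list of 30000 peaks and background regions called on the pooled reads. Every one of the 10 had a relaxed summit within 500 bp, against 33.0% of all protein-coding genes. The count of 6 fell to 3 (chs-1, nos-3 and puf-5) within 250 bp, and to 2 or 3 when 1 replicate was left out and a peak had to be among the strongest 3295 of both others. The count over all 19985 protein-coding genes fell too, from 2351 to 1540 within 250 bp and to 1255 to 1515 with 1 replicate left out. The IDR list itself stayed that of all 3 replicates, so leaving 1 out here only added a rank limit in the others. No test was made of these shares, because the genes were listed with results of these data in view.

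**Figure D1:**
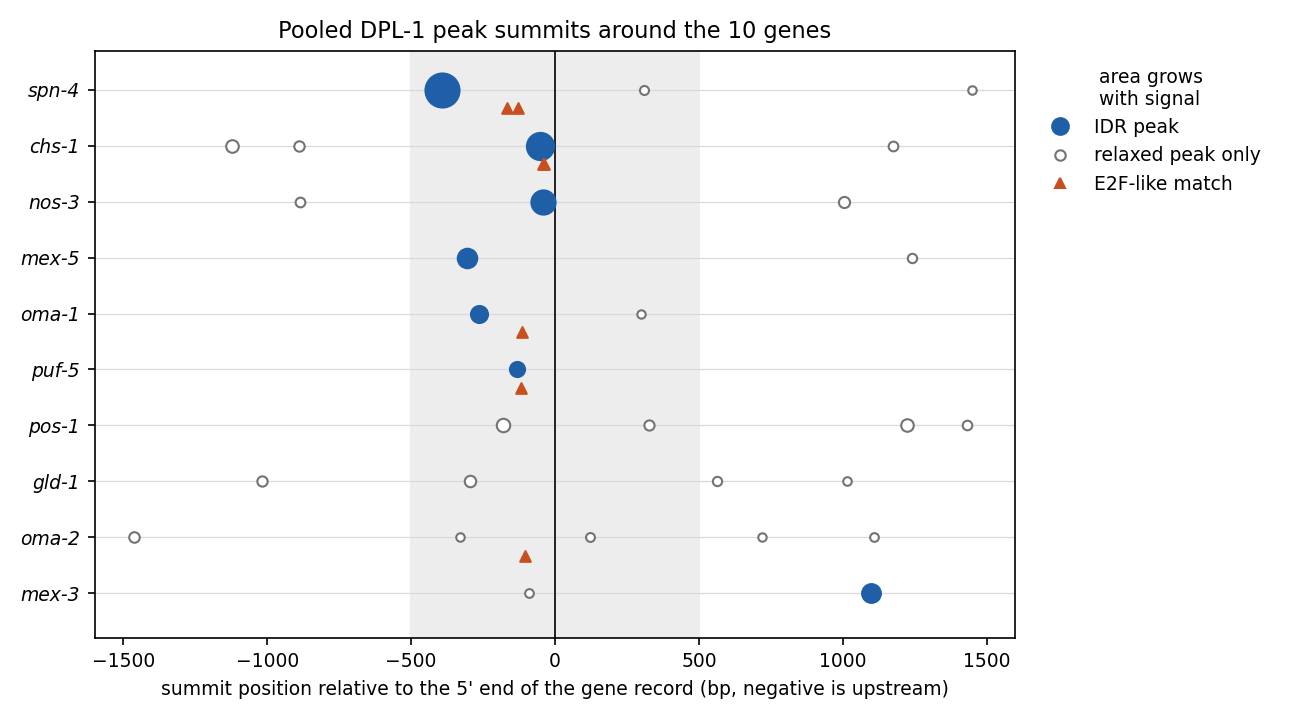
Position of each pooled peak summit relative to the start of the gene record, in bp with upstream negative, for the 10 genes, one per row. Circle area grows with the authors' signal value, filled circles are IDR peaks, open circles are relaxed peaks only, and triangles mark E2F-like matches between 250 bp upstream and 50 bp downstream; the grey band is the 500 bp window, which holds 6 filled circles, all left of 0.

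Among the regulators of the early embryo, spn-4 carried the strongest peak of the 10. SPN-4 (gene WBGene00004984) is an RNA-binding protein with an RNA recognition motif. Its peak (chromosome V, 6785171 to 6785415) had its summit 392 bp upstream of the gene (6783187 to 6784903, minus strand), with a pooled signal of 288 and place 204 of 3295. The signal is the authors' own measure of peak strength and can be compared within a list only. In replicates 1, 2 and 3 the same peak had signals of 66.8, 141 and 64.2 and ranks 222, 318 and 183. The 3 ranks lay within a factor of 1.74, the narrowest spread among the 6 genes. The summit was nearer to another gene, spe-39, at 156 bp upstream of it on the opposite strand, and spe-39 is known for a part in sperm development. Counting only the nearest gene of each peak therefore leaves spn-4 out, and mex-5 with it, so that 4 of the 10 genes have an IDR peak. The count over all 19985 protein-coding genes fell as well under this rule, from 2351 to 1809.

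MEX-5 (WBGene00003230; IV, 13353723 to 13356104) is a CCCH zinc finger protein that sets the front-to-back axis of the zygote. Its peak was a narrow one of 86 bp (IV, 13353402 to 13353487), 305 bp upstream, with signal 88.2 and place 1525. The ranks were 2036, 3330 and 457 in replicates 1, 2 and 3, so the peak was strong in replicate 3 and just outside the strongest 3295 in replicate 2. This peak too lay between a pair of divergent genes, 225 bp upstream of rec-8, which encodes a meiotic cohesin. One summit within the window cannot be divided between the 2 genes.

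POS-1 (WBGene00004078; V, 8414086 to 8415254), another CCCH zinc finger protein, is needed for posterior fates in the embryo. The strongest summit at pos-1 lay 180 bp upstream with a pooled signal of 37.4 at place 4168 of 30000, which is below the lowest signal of any IDR peak, 45.7. It was matched in replicate 3 only, at rank 1996 there. The replicate 2 list held a summit 317 bp upstream at rank 8415, and the replicate 1 list had none within 500 bp. The pos-1 summit also lay 424 bp upstream of vha-18, a vacuolar ATPase gene. Its surrounding sequence was the poorest in G and C of the 10, at 26.7%, while the 4 genes without an IDR peak ranged up to 46.5% at gld-1 and the 6 with one ran from 36.6% to 49.5%, so the groups overlapped.

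MEX-3 (WBGene00003229; I, 127285 to 134270) is a KH-domain protein that represses maternal messages in anterior cells, and its gene was the weakest of the 10 at its start. The pooled summit 92 bp upstream had signal 10.5 and place 21960, and replicate 2 alone matched it, at rank 12261. An IDR peak lay further in, in an intron 1099 bp downstream of the start (I, 128232 to 128535). It had signal 81.3 and place 1706, with ranks 1768, 2288 and 3720 in replicates 1, 2 and 3. The summit stood 313 bp upstream of the first base of a shorter annotated mex-3 transcript, at 128697. With the starts of all annotated transcripts in place of gene records, mex-3 joins the genes with an IDR peak and the count becomes 7 of 10. Over all 19985 protein-coding genes the same change raised the count from 2351 to 2478. Within 1500 bp of the 10 gene starts the summit in the mex-3 intron was the only IDR summit beyond the 500 bp limit. The farthest inside the limit was that of spn-4 at 392 bp.

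Among the genes that act in the germ line and the growing oocyte, nos-3 had the strongest peak. NOS-3 (WBGene00003785) is a Nanos protein that works with PUF proteins in the switch from sperm to oocyte production. The peak (II, 9746198 to 9746348) had its summit 43 bp upstream of the gene (9746316 to 9750462), with signal 141 and place 775. Its ranks were 9678, 617 and 828 in replicates 1, 2 and 3, so it was strong in replicates 2 and 3 and weak in replicate 1. The signals behind these ranks were 6.72, 97.6 and 30.0. The same summit lay 195 bp upstream of a divergent gene, Y53C12B.1.

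The paralogous genes oma-1 and oma-2, whose CCCH proteins act redundantly in oocyte maturation, did not look alike. At oma-1 (WBGene00003864; IV, 8888976 to 8890999) an IDR peak lay 264 bp upstream with signal 65.1 at place 2215. Its ranks were 7557, 1813 and 4384 in replicates 1, 2 and 3, and only replicate 2 placed it among its strongest 3295. At oma-2 (WBGene00003865; V, 8029439 to 8031214) the strongest pooled summit within 500 bp lay in an intron of the gene 123 bp downstream, with signal 11.3 at place 20304. The best summits in the replicates' own lists lay 65, 439 and 317 bp upstream, at ranks 28160, 14726 and 11065. Each of these is weaker than the weakest of the oma-1 ranks. The sources used here do not say how reads were shared between similar gene copies.

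PUF-5, a Pumilio-family repressor of oocyte messages, had the weakest IDR peak of the 6, 131 bp upstream of the gene (WBGene00004241; II, 8575541 to 8577787). The peak had signal 49.1 and place 3040 of 3295. Replicates 2 and 3 ranked it 4397 and 1452, and replicate 1 had no summit within 100 bp of it. The replicate 1 list held a summit 241 bp upstream of the gene at rank 7031. A place on the IDR list thus did not require a summit within 100 bp in every replicate. Of the 3295 IDR peaks, 3270 were among the strongest 3295 of the pooled list. GLD-1, the STAR-family translational repressor that guides germ cells through meiosis, had no IDR peak. The pooled summit 297 bp upstream of gld-1 (WBGene00001595; I, 7695681 to 7698222) had signal 24.7 and place 7080. It was matched in replicate 2 only, at rank 5878.

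At the eggshell gene chs-1 (WBGene00000496; I, 7554855 to 7559916) the peak (7554716 to 7554887) had its summit 51 bp upstream and reached over the start of the gene. The pooled signal was 180 and the place 511. Replicates 1, 2 and 3 gave signals of 36.1, 60.0 and 84.8 and ranks of 606, 1309 and 105. The replicate 3 rank was the best that any of the 10 genes had in any replicate, and the ranks spread by a factor of 12.5. The peaks of chs-1 and spn-4, and of no other gene of the 6, were among the strongest 3295 of all 3 replicates. Over all 1833 IDR peaks at protein-coding 5' ends the share was 48.9%, above the 33.3% of the 6.

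**Figure D2:**
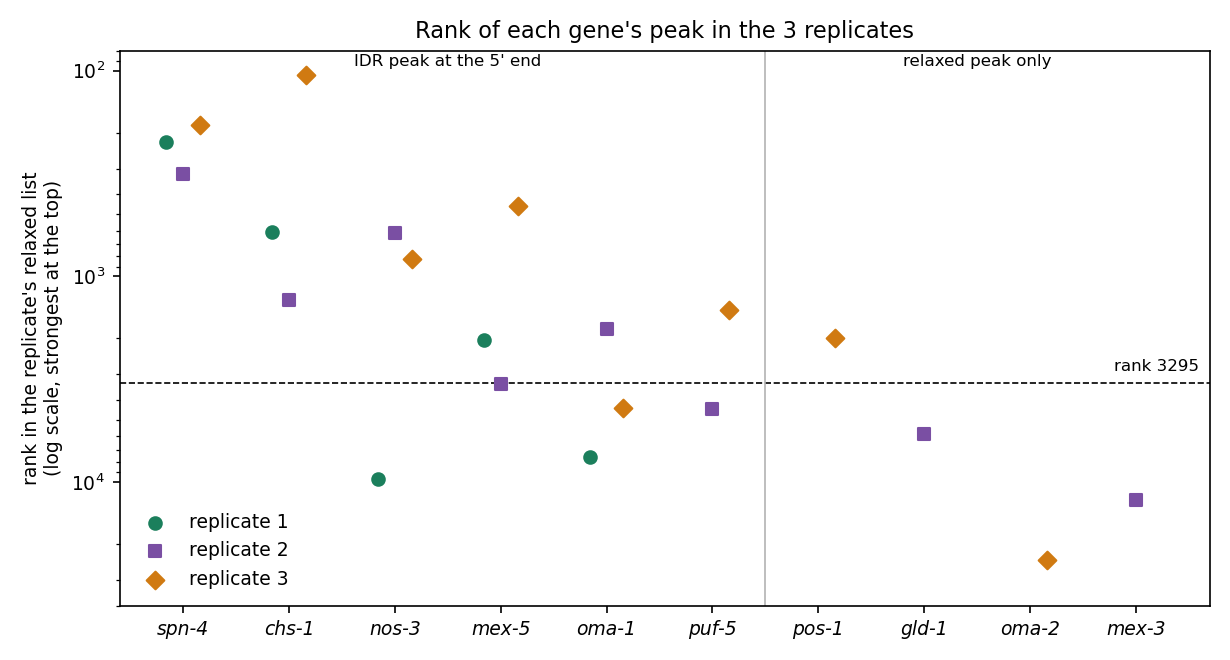
Rank of the peak at each gene's 5' end in the relaxed list of each replicate, on a log axis with the strongest at the top, matched within 100 bp of the pooled summit. Circles are replicate 1, squares replicate 2 and diamonds replicate 3, the dashed line is rank 3295, and a missing symbol means no match; spn-4 sits between 183 and 318 in all 3, and nos-3 runs to 9678 in replicate 1.

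The replicates ordered these peaks differently. Among the 5 genes matched in all 3 replicates the worst rank was a median of 7.29 times the best, against a median of 2.63 over all IDR peaks at 5' ends matched in all 3. Replicate 3 gave the best rank to 4 of the 6 peaks (spn-4, chs-1, mex-5 and puf-5), replicate 2 to nos-3 and oma-1, and replicate 1 to none. Of all 1833 IDR peaks at protein-coding 5' ends, 25.2% ranked best in replicate 3, 46.5% in replicate 2 and 28.3% in replicate 1. The eggshell genes of a list described below ranked best in replicate 3 in 5 of 5 cases. The labels name 1 protocol document for replicate 3, and the same document with a further sequencing protocol for replicates 1 and 2. The part of the protocol in these ranks was not tested.

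**Figure D3:**
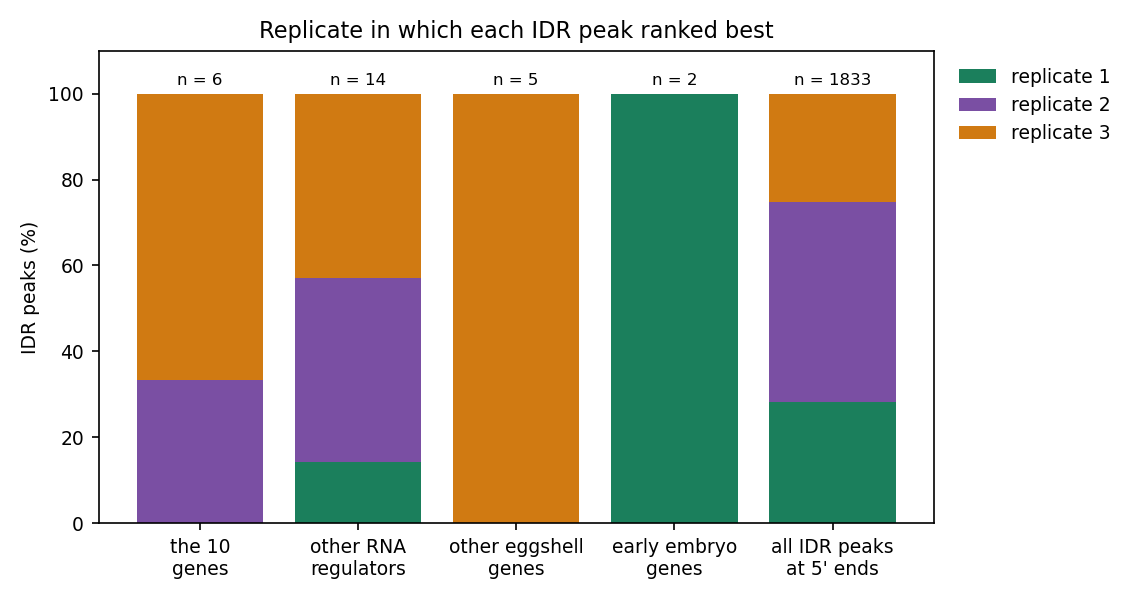
Share of IDR peaks that ranked best in replicate 1, 2 or 3, in percent, for the 10 genes, 3 lists of related genes and all IDR peaks at protein-coding 5' ends; n is the number of genes or, in the last bar, of peaks. Replicate 3 holds 4 of 6 among the 10 genes and 5 of 5 eggshell genes, against 25.2% of all.

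In the replicates' own lists, cut at the strongest 3295 peaks, 3, 4 and 6 of the 10 genes had a peak within 500 bp in replicates 1, 2 and 3, a mean of 4.33 ± 1.53 (SD, n = 3). The shares over all protein-coding genes were 9.94%, 11.7% and 10.3%. The 3 genes of replicate 1 were spn-4, chs-1 and mex-5. Replicate 2 had spn-4, chs-1, nos-3 and oma-1, and replicate 3 had spn-4, chs-1, nos-3, mex-5, puf-5 and pos-1. Only spn-4 and chs-1 were in all 3.

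The 6 peaks are too few for their other traits to be read as particular to them. Their median pooled signal was 115, against 98.0 over all 1833 such peaks. The median distance to the 5' end was 198 bp, against 193 bp over all 2351 genes with an IDR peak. All 6 pooled summits lay upstream and in sequence with no annotated gene, and 90.5% of the genes with an IDR peak had theirs upstream. A gene start in worms is often a trans-splice site, which lies downstream of the point where transcription begins. The median GC content of the bases around the summits was 43.6%, against 45.5%. A total of 3 of the 6 peaks (spn-4, nos-3 and mex-5) served a second gene, against 29.8% of all 1833. The q values behind all 6 stood at the highest −log10 q in the pooled list, 3.87, as did those of every IDR peak, while the −log10 q was 3.08 for pos-1, 2.16 for gld-1, 0.431 for oma-2 and 0.376 for mex-3. None of the 10 genes lies on the X chromosome, which holds 13.7% of protein-coding genes.

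E2F-like letters were found in 5 of the 10 promoters, those of spn-4, chs-1, oma-1, oma-2 and puf-5. The promoter window ran from 250 bases upstream to 50 bases downstream of the gene start. Among all protein-coding promoters 9.20% held a match, and among genes with an IDR peak 19.8% did. The same letters read backwards (CGCCCTT or CGCGCTT or CGCCGTT or CGCGGTT), which have the same base composition, were in none of the 10 promoters, against 12.7% of those of genes with an IDR peak and 5.49% of all. The matches at spn-4, oma-1, oma-2 and puf-5, each with the bases beside it on the plus strand and the match in capitals, are these.
spn-4, chrV:6785016-6785045: aatttcacattTTCCCGCcaccgagttaca
spn-4, chrV:6785055-6785084: aaaatcaaaatTTCGCGCctttgtgatctt
oma-1, chrIV:8888846-8888875: attgtgcaccgGCGCCAAaatgtgatattt
oma-2, chrV:8029319-8029348: tttataccgttTTGGCGCattcgttttttc
puf-5, chrII:8575408-8575437: tttgatcaccgGCGGGAAtattttgcattt
They are shown because oma-1 and oma-2 hold the same letters, TTGGCGC read on one strand or the other, at 113 to 119 and 103 to 109 bp upstream, while an IDR peak lay at oma-1 alone.

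The match and the summit coincided at some of these genes and not at others. At puf-5 the match was centred 12 bp from the summit. At chs-1 a pair of overlapping matches on opposite strands lay 10 and 13 bp from the summit, beside a CHR match. At oma-1 the match stood at the edge of the peak, 148 bp from its summit, and at spn-4 both matches lay outside the peak, 124 to 169 bp upstream of the gene. Within 50 bp of the summit, 2 of the 6 peaks held an E2F-like match (chs-1 and puf-5), against 17.9% of all IDR summits at 5' ends. A CHR match was found within 50 bp at 2 of the 6 (spn-4 and chs-1), against 31.2% of all IDR summits at 5' ends. Among promoter windows of the same length at all protein-coding genes, 34.1% held one. Within 100 bp 4 of the 6 held one, a width at which all IDR summits were not counted. CHR letters were in 5 of the 10 longer promoter windows, against 68.9% of all. Read backwards within 50 bp of the summit, the E2F-like letters were at 1 of 6 (spn-4), against 10.5%. The CHR letters read backwards were at 1 of 6 (puf-5), against 9.66%. The nos-3, mex-5 and oma-1 summits had neither match within 50 bp. A match describes the letters only and is not a bound site.

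The strongest of the 10, spn-4, was set beside all other genes by its ranks in the 3 replicates. Of 1877 other genes whose IDR peak was matched in every replicate, the closest by the summed difference in log2 rank were eas-1 (0.39, ranks 188, 299 and 191), Y73B6BL.29 (0.53, ranks 203, 303 and 145), and F25H2.6 and ndk-1, which share 1 peak (0.55, ranks 240, 283 and 152). The likeness is in these 3 ranks only.

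Related genes outside the 10 were counted in the same way. Of 39 other germline and maternal RNA regulators, 14 carried an IDR peak near the gene start (35.9%), against 11.8% of all protein-coding genes. A further 11 had only a relaxed peak. Any peak of the pooled relaxed list lay at 25 of the 39 (64.1%), against 33.0% of all protein-coding genes. The strongest IDR peaks were at puf-9, which encodes a further Pumilio-family protein (signal 389), ife-3, an eIF4E cap-binding protein gene (202), and mog-4, an RNA helicase gene of the sperm-to-oocyte switch (201). Puf-9 and mog-4 ranked within the strongest 3295 of all 3 replicates, and ife-3 in replicates 2 and 3. The median signal of the 14 was 79.3, below the 115 of the 6 genes described above. No test of the difference was made.

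Of 13 other eggshell and egg activation genes, 5 had an IDR peak (38.5%). The strongest were at the eggshell proteoglycan genes cpg-1 (signal 157, 224 bp upstream) and cpg-2 (90.5, 227 bp upstream) and at egg-4 (83.6, 253 bp upstream), which encodes a pseudophosphatase of the egg-to-embryo transition. The other 2 were at rme-2, the yolk receptor gene (75.4), and cbd-1, which encodes a chitin-binding eggshell protein (50), named after their values were seen. All 5 lay upstream, and replicate 3 gave each its best rank, at 260, 928, 1185, 755 and 940. The chs-1 peak was stronger than any of them. The order of the lists depends on the distance: within 250 bp an IDR peak lay at 3 of the 10 genes, 4 of these 13 and 10 of the 39 other RNA regulators. At that distance 1540 of all 19985 protein-coding genes had one.

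Genes of early embryo polarity and fate had IDR peaks at 2 of 13 (15.4%). These were pkc-3, an atypical protein kinase C (signal 130), and par-5, a 14-3-3 protein (90.3). A further 6 had relaxed peaks only, and 5, among them glp-1 and par-2, named after their values were seen, had none. The 15.4% is near the 11.8% of all protein-coding genes. Any peak of the pooled relaxed list lay at 8 of the 13 (61.5%), against 33.0% of all protein-coding genes.

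**Figure D4:**
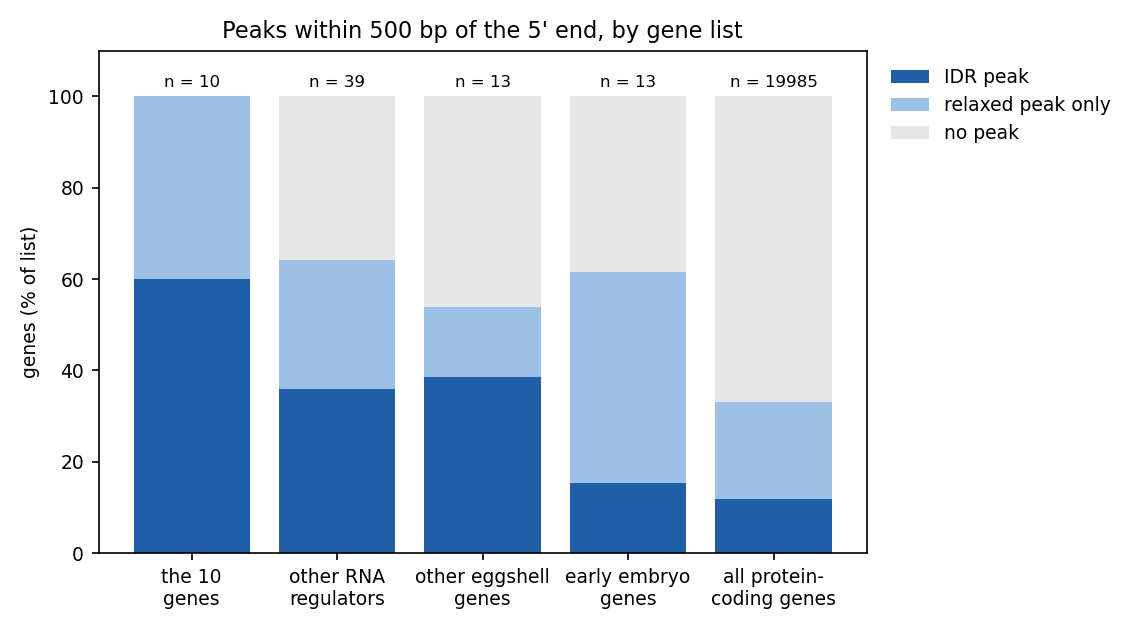
Share of genes, in percent, with an IDR peak, only a relaxed peak or no peak within 500 bp of the 5' end, for the 10 genes, 3 lists of related genes and all protein-coding genes; n is the number of genes. The dark share is 60.0% for the 10 genes, against 11.8% for all protein-coding genes.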

How the data were processed

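The 5 peak lists on build ce11 were used, and the reference genome is of that build. Per the text deposited with each sample, the relaxed lists came from each replicate's alignments, or from all 3 pooled, with 1 further source file, and the optimal list from these 4. The sources used here name no aligner, peak caller or IDR threshold. The signal is a score that the authors deposited for each peak, with a scale set per list. The deposited −log10 q values are those of the authors' peak caller. The lists hold 3295 IDR peaks, 30000 relaxed peaks for the pooled reads and replicates 2 and 3, and 28383 for replicate 1. They give no read numbers, so depth is unknown and no interval can be given. The ce10 lists were not used.

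Genes and transcripts came from Ensembl release 115. Summits were set against the start of each of 19985 protein-coding gene records within 500 bp, and a replicate's peak was matched when its summit lay within 100 bp. Functions were tested on simulated data. Python 3.11.15, NumPy 2.4.6 and matplotlib 3.10.9 were used. The genes and lists were chosen with earlier results of these data known, so no test was made. Named genes were the 10, any other protein-coding gene within 500 bp of their summits, the 3 strongest in each of 3 other lists, and the 3 genes whose ranks were most like those of spn-4, with ties. Family members and the other genes named from the lists were chosen after their values were seen. Of the 40 RNA regulators listed, 1 symbol was not found. Alternatives were other distances, gene starts, peak sets and motifs.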

Additional observations from a re-analysis of the deposited data

How the results depend on the processing

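Wherever an alternative left a peak to measure, the signals and ranks of the 6 IDR peaks were the same, in 54 alternatives. The signals had no room to change, because each of these genes had only 1 IDR peak within reach. The ranks compared were only those already matched within 100 bp. Of 18 ranks sought, 17 were found within 100 bp, 16 within 50 bp and 18 within 200 bp. Of 68 summary values 28 stayed the same, which means within 1.5 times for a count and an equal value for a median signal. With a 250 bp distance 3 of the 10 genes (chs-1, nos-3 and puf-5) had an IDR peak, as did 10 other RNA regulators, 4 eggshell genes and 1540 of all protein-coding genes, 6 had a relaxed peak, and the median signal was 141. With 1000 bp 4 early embryo genes had an IDR peak, as did 2933 of all 19985 protein-coding genes. With all transcript starts the median signal was 88.2. Counting the nearest gene only left 4 of the 10 genes, without spn-4 and mex-5, 1 early embryo gene and 1809 of all protein-coding genes. Among the stronger 50% of IDR peaks there were 6 other RNA regulators, 3 eggshell genes and 1464 protein-coding genes. Among peaks in the strongest 3295 of all 3 replicates there were 2 of the 10 genes (spn-4 and chs-1), 5 RNA regulators, 2 eggshell genes, 1 early embryo gene and 1198 protein-coding genes. With the peak itself over the gene start there were 3, 3, 1, 0 and 663. Leaving out 1 replicate kept those peaks of the IDR list, itself made from all 3, that were among the strongest 3295 of both others. That gave 2 to 3 of the 10 genes (nos-3 kept without replicate 1, mex-5 without replicate 2, neither without replicate 3). It also gave 5 to 9 RNA regulators, 2 to 4 eggshell genes, 1 to 2 early embryo genes and 1255 to 1515 protein-coding genes. For relaxed peaks a match at any rank in both other replicates was enough, and 5 to 6 of the 10 genes kept a relaxed peak. The relaxed counts under this rule and at 250 bp were made for the 10 genes only. They have no share over all protein-coding genes to be set beside. The CHR match was at 4 of 6 peaks within 100 bp or in the whole peak, and at 1 when read backwards. The E2F-like match was at 2 of 6 within 100 bp, at 3 in the whole peak and at 1 when read backwards. Shares over all IDR peaks were not counted within 100 bp or in the whole peak. A set that holds fewer peaks can by construction give no more genes. Depth, which the files do not give, limits what a missing peak can mean. No paired analysis was possible because there is 1 group.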

Other observations

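Within families, grouped after the values were seen, the DPL-1 peaks did not cover every relative of a gene. The shares over all protein-coding genes were 11.8% with an IDR peak and 33.0% with any peak of the pooled relaxed list. Of 7 CCCH zinc finger genes in these lists, 4 had an IDR peak (oma-1, mex-5, mex-1 and pie-1), oma-2 and pos-1 had a relaxed peak only, and mex-6, the close relative of mex-5, had none. Of 9 PUF genes, puf-3, puf-5, puf-9 and puf-11 had an IDR peak, puf-7 a relaxed peak only, and puf-6, puf-8, fbf-1 and fbf-2 none. Of the Nanos genes nos-1, nos-2 and nos-3, only nos-3 had an IDR peak and nos-2 had a relaxed one. Some of these genes are close copies, and the sources do not say how reads were shared between copies.

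E2F-like letters were in the promoters of 9 of the 13 other eggshell and egg activation genes (69.2%), against 9.20% of all protein-coding promoters, and the letters read backwards were in none of the 13, against 5.49%. All 5 eggshell genes with an IDR peak held a match, and so did 4 of the 8 without one (perm-2, egg-1, egg-2 and egg-5). The egg-1 and egg-2 genes are copies of each other, as are egg-4 and egg-5, so these are not separate observations. Among the 39 other RNA regulators 8 promoters (20.5%) held a match, and 4 (10.3%) held the letters read backwards.

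Summits outside the IDR list were also counted within 1500 bp of the gene start. The pooled relaxed list held a median of 2 such summits at the 10 genes, from 0 at puf-5 to 5 at oma-2, against a median of 0 over all protein-coding genes. At least 1 lay there at 9 of the 10 genes, against 40.3% of all protein-coding genes. The strongest were at pos-1, with signals of 37.4 at 180 bp upstream and 31.4 at 1223 bp downstream, and at chs-1, with 31.9 at 1121 bp upstream.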
